A study of Mus musculus with 6 samples.

Results

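The carnitine shuttle was followed here through 8 genes, taken by name: Slc22a5, Cpt1a, Cpt1b, Cpt1c, Slc25a20, Cpt2, Crat and Crot. They are 8 of the 29370 genes in the gene matrix, and 47 of the 116224 transcripts quantified in each library belong to them. The cells were wild-type (WT) mouse CD8+ T cells, isolated from pancreas, spleen and lymph nodes and kept in complete T cell medium. In the palmitate group (3 libraries) the medium held 100 μM palmitate, a saturated long-chain fatty acid; the other 3 libraries are labelled as control, with no vehicle named. RNA was sequenced after 48 h. The study asked how palmitate affects the function of these cells. The labels give no strain, age or number of mice, and do not say whether the 3 libraries of a group are separate animals or cultures. The p-values below therefore reflect library-to-library spread, part or all of which may be technical.

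Long-chain fatty acids cannot cross the inner mitochondrial membrane as coenzyme A (CoA) esters. A carnitine palmitoyltransferase of the outer membrane (CPT1) moves the acyl group to carnitine, a carrier in the inner membrane exchanges the acylcarnitine for free carnitine, and CPT2 on the inner side restores the CoA ester for beta-oxidation. CPT1 is inhibited by malonyl-CoA and is regarded as the controlled step of the pathway. Activated T cells rely mainly on glucose and glutamine, and long-lived memory CD8+ T cells are known for a larger use of this route.

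The 8 genes could be read from the deposited gene matrix and transcript by transcript, and for Cpt1a the 2 readings differ. Of the 47 transcripts, 35 had at least 1 estimated read in some library, and 14 passed the filter on low counts. Of these 14, 11 were above the filter's minimum in all 6 libraries, and the other 3 were Crat-201, Crat-202 and Crat-203. The annotation (GENCODE M21) classes 5 of the 14 as retained intron, a class of transcripts that keep intron sequence and are not translated as the gene's protein: Cpt1a-202, Slc25a20-202, Crot-203, Cpt1c-203 and Cpt2-206. The lengths of all 47 transcripts in the deposited files equal those in the annotation.

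In the following pairs the coding transcript of a gene stands above its retained-intron transcript, because the counts discussed below depend on telling these apart. Each run is 60 bases of transcript, 5′ to 3′, read from GENCODE M21. The lower-case part is the last 30 bases of a coding exon that both transcripts share, and the capitals are what follows: the next exon in the coding transcript, the intron in the other. Shown is the first exon end at which the retained-intron transcript reads on into an intron. This is exon 2 for Cpt1a, exon 1 for Slc25a20 and exon 6 for Crot, numbered as in the coding transcript. The transcripts of Crot also differ elsewhere: of 2082 bases of Crot-203 outside Crot-201, 1587 are the intron stretch after exon 6.
Cpt1a-201: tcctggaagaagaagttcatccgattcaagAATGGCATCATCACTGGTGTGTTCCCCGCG
Cpt1a-202: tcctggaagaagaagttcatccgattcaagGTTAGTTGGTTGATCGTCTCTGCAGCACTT
Slc25a20-201: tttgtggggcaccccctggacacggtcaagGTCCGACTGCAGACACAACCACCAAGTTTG
Slc25a20-202: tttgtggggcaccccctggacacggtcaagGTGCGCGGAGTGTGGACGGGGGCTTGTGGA
Crot-201: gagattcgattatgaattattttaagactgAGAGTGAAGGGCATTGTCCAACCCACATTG
Crot-203: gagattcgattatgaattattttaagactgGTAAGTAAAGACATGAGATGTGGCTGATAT

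Cpt1a lies on chromosome 19. Cpt1a-201 has 19 exons and 4317 bases. Cpt1a-202 has 2 exons and 2513 bases, and after exon 2 it runs 2332 bases into an intron of 3142 bases, so 92.8% of it is absent from Cpt1a-201. The part of Slc25a20-202 (chromosome 9, 1 exon, 2751 bases) outside the coding transcript is 91.5%, that of Crot-203 (chromosome 5) 75.8%, that of Cpt1c-203 (chromosome 7) 30.5% and that of Cpt2-206 (chromosome 4) 3.00%. No other annotated gene has an exon in these stretches. Salmon, the tool that estimated the reads, divides reads that match several transcripts, so the share of a transcript's 31-base words found elsewhere bears on its count. Of the 31-base words of Cpt1a-202, 86.8% occur in no other quantified transcript, 6.08% occur in another Cpt1a transcript and 7.09% in transcripts of other genes. No word of Cpt1a-201 occurs in another gene.

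Library totals in the gene matrix were 26042768 to 29362276 counts in the control group and 16724588 to 24777611 in the palmitate group, with palmitate library 3 the shallowest. Reads of retained-intron transcripts of all genes made up 4.55% to 5.44% of a control library and 4.67% to 5.53% of a palmitate library. Of 8 CD8 T cell markers, all passed the filter, 6 rose and Gzmb fell, where 11.1% of all genes tested rose and 11.7% fell. Their summed level was 6902 to 8668 CPM (counts scaled to a common library total) in control and 5365 to 6220 CPM in palmitate. Gzmb gave most of this sum (mean 6769 CPM in control and 4082 CPM in palmitate). Each of the other CD8 T cell markers had a higher mean in palmitate, such as Cd8a (315 CPM in control and 516 CPM in palmitate). Of the 4 CD4 T cell markers, Cd4, Foxp3 and Cd40lg were under 1 CPM in all 6 libraries. The 4 markers summed to 1.96 to 2.81 CPM in control and 3.70 to 6.72 CPM in palmitate, and Zbtb7b rose. All 7 myeloid markers were under 1 CPM, with S100a8 and S100a9 at 0. Pancreatic acinar and islet markers summed to 1.24 to 1.90 CPM in control and 1.45 to 2.86 CPM in palmitate, with Pnlip, Ins1 and Ins2 at 0, and muscle markers to 3.23 to 3.56 CPM and 2.34 to 5.11 CPM, with Ckm and Myh6 at 0 and Tnnt2 giving the most. The 10 B and plasma cell markers summed to 181 to 246 CPM in control and 276 to 308 CPM in palmitate, of which Ighm gave the most, and 2 of them rose (Cd79a and Jchain). Summed stroma and endothelium markers were at 35.4 to 41.9 CPM in control and 46.6 to 63.7 CPM in palmitate. Pecam1 gave nearly all of this and rose, while Col1a1, Col3a1 and Cdh5 were under 1 CPM. Erythroid and platelet markers were at 4.82 to 6.03 CPM and 6.38 to 9.80 CPM (Hbb-bs rose). Natural killer cell markers were at 167 to 185 CPM and 143 to 162 CPM. Eomes gave nearly all of this (mean 175 CPM in control and 149 CPM in palmitate), and Ncr1 and Klra8 were under 1 CPM. Dendritic cell markers were at 3.97 to 4.196 CPM and 4.96 to 5.50 CPM. No natural killer or dendritic cell marker was called. The part of these shifts in the results below was not tested. In bulk RNA, fewer cells of a kind and less RNA per cell cannot be told apart.

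In the gene matrix, palmitate came with higher Cpt1a and Slc25a20, the entry enzyme and the carrier of the shuttle, and with lower Crat, which makes short-chain acylcarnitines. The other 4 genes tested did not pass. Of the 8 genes 7 were tested (Cpt1c had too few counts), 2 rose and 1 fell by the quasi-likelihood test of edgeR (Benjamini-Hochberg adjusted over 12068 genes, threshold 0.05). Over all genes tested 22.9% were called, 11.1% higher and 11.7% lower. The same 3 genes were called with DESeq2, which called 26.3% of all genes, and with limma-voom, which called 22.4%. The CPM of the 2 groups did not overlap for 4 of the 7 (Cpt1a, Slc25a20, Crat and Cpt2), against 42.9% of all genes. The median log2 change of the 7 was 0.26, and that of all genes 0.02.

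**Figure D1:**
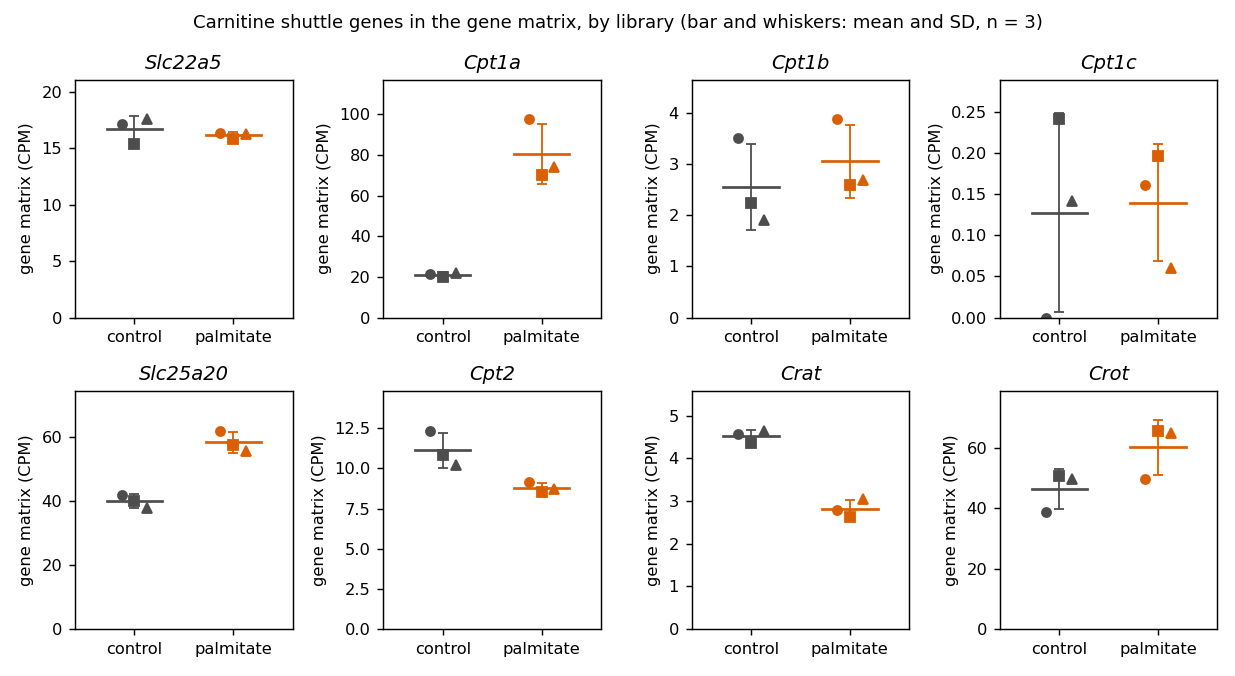
Level of each gene in the gene matrix, in CPM on TMM-scaled library sizes; points are libraries (circle, square and triangle for replicates 1, 2 and 3), lines and whiskers the mean and SD. For Cpt1a the palmitate libraries lie between 70.1 and 97.5 CPM, above the control libraries at 19.8 to 22.0 CPM, while for Crot and Slc22a5 the groups overlap.

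Slc22a5 encodes OCTN2, the plasma membrane transporter that brings carnitine into the cell. Its level was 17.1, 15.4 and 17.5 CPM in control libraries 1 to 3 and 16.3, 15.8 and 16.2 CPM in palmitate libraries 1 to 3. The palmitate values lie within the range of the control values. The log2 change was −0.05 ± 0.10 (SE), with a 95% interval of −0.27 to 0.17 and an adjusted p of 0.746 (edgeR), and with upper-quartile scaling it was 0.01. Nearly all its reads went to the coding transcript Slc22a5-201 (98.7% to 100% of gene reads in the 6 libraries), whose log2 change was −0.09 ± 0.11. Of the 31-base words of that transcript 38.7% also occur in Slc22a4, Slc22a21 or Gm12220, so reads could be divided among these genes.

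Cpt1a encodes the CPT1 form of liver and lymphocytes. In the gene matrix it was at 21.6, 19.8 and 22.0 CPM in control and 97.5, 70.1 and 74.3 CPM in palmitate. All 3 palmitate libraries were above all 3 control libraries, and palmitate library 1 was the highest. Cpt1a rose by 1.93 ± 0.13 on the log2 scale (95% interval 1.62 to 2.24, 3.81-fold, adjusted p 0.00113 by edgeR). Its p ranked 3 among 12068 genes.

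The matrix value of Cpt1a is that of a single transcript. Within 0.446 reads, its counts equal the estimated reads of Cpt1a-201 alone in every library, which is 60.3% of the reads of all Cpt1a transcripts. For Cpt1c the matrix holds Cpt1c-201 alone, 5.10% of the gene's reads (within 0.25 reads), and for the other 6 genes it holds all transcripts within 0.441 reads. The same holds by transcript number over the whole series. In genes with exactly 2 transcripts over 50 reads, 3748 of 3757 transcripts numbered under 190000 were in the matrix (99.8%), but 34 of 592 numbered 200000 or more (5.74%). Cpt1a-202 carries number 235968.

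Cpt1a-201 was at 19.1, 19.0 and 20.6 CPM in control and at 85.9, 62.5 and 67.8 CPM in palmitate. The groups did not overlap. The log2 difference was 1.88 ± 0.14 (95% interval 1.54 to 2.22), with an adjusted p of 0.0544 by edgeR over 39731 transcripts, the smallest p but one. Cpt1a-202, the retained-intron transcript, was at 24.7, 37.9 and 37.1 CPM in control and at 17.4, 30.7 and 23.0 CPM in palmitate. Here the groups overlapped, and the log2 difference was −0.49 ± 0.26 (95% interval −1.12 to 0.14, adjusted p 0.435). In all 3 control libraries the retained-intron transcript had more reads than the coding one, and in all 3 palmitate libraries it had fewer.

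The ratio of Cpt1a-201 to Cpt1a-202 reads was 0.774, 0.501 and 0.555 in control and 4.94, 2.03 and 2.95 in palmitate. Every control library was below 1 and every palmitate library above it. As a share of all Cpt1a reads, Cpt1a-202 made up 56.2%, 66.6% and 64.3% in control and 16.8%, 32.9% and 25.3% in palmitate. The share of Cpt1a-201 was 43.5%, 33.4% and 35.7% in control and 83.0%, 66.9% and 74.6% in palmitate. The groups did not overlap for either share. Relative to the gene as a whole, Cpt1a-202 fell by 1.35 on the log2 scale, with an adjusted p of 0.0494 by edgeR's test of transcript usage. It was the only member called among the 11 transcripts of members that could be tested this way. Of 35064 transcripts tested so, 0.337% were called. The counterpart value for Cpt1a-201 was 1.02 with an adjusted p of 0.117. An exact two-sided permutation test of the shares gave p = 0.1 for each transcript, the smallest value that 3 libraries against 3 allow.

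The call on the Cpt1a-202 share sits at the threshold. Its adjusted p by edgeR was 0.0527 with RLE scaling and 0.0543 with the replicate number as a block, and leaving out single libraries gave 0.0205 to 0.192, under the threshold only without palmitate library 2. The log2 change of the share, −1.35 with all libraries, was −1.34 with RLE scaling, −1.37 with the block and −1.60 to −1.11 without single libraries. With limma's diffSplice on voom values the 2 transcripts differed by 2.36 in their log2 change, with an adjusted p of 0.00608, where 0.656% of transcripts were called.

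**Figure D2:**
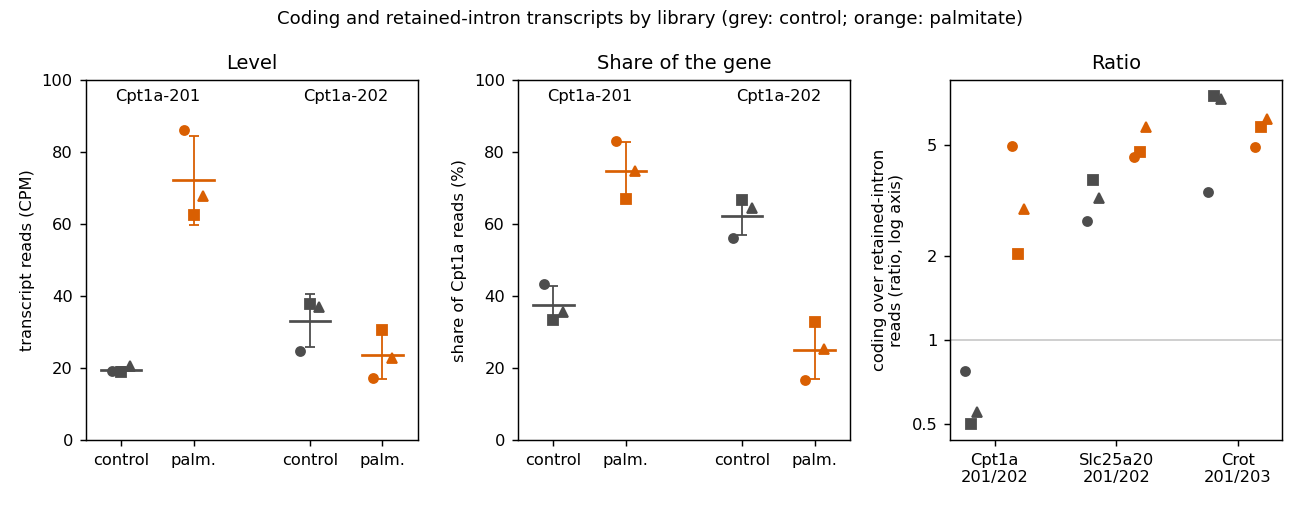
Left, reads of the 2 main Cpt1a transcripts in CPM; middle, their share of Cpt1a reads in percent; right, the ratio of coding to retained-intron reads on a log axis for Cpt1a, Slc25a20 and Crot. Points are libraries (circle, square and triangle for replicates 1, 2 and 3), lines and whiskers the mean and SD; the Cpt1a ratio is 0.501 to 0.774 in control and 2.03 to 4.94 in palmitate.

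Per length, in deposited TPM (reads scaled for transcript length and library total), Cpt1a-202 was at 14.9, 20.6 and 20.02 TPM in control and 10.9, 18.6 and 13.1 TPM in palmitate. Cpt1a-201 was at 5.45, 4.98 and 5.45 TPM in control and 25.9, 17.8 and 18.4 TPM in palmitate. On this scale Cpt1a-202 was above Cpt1a-201 in all 3 control libraries and also in palmitate library 2, and below it in palmitate libraries 1 and 3.

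The size of the Cpt1a change therefore depends on what is counted. Summed over all its transcripts, Cpt1a was at 45.3, 54.6 and 56.7 CPM in control and 106.3, 94.7 and 90.7 CPM in palmitate. The groups again did not overlap, and the log2 change was 0.90 (adjusted p 0.00123 by edgeR, where 25.8% of genes were called). The mean effective length of a Cpt1a transcript, weighted by TPM, went from 2681, 2553 and 2623 bases in control to 3651, 3177 and 3393 bases in palmitate. With offsets for that length the log2 change was 0.50 (adjusted p 0.0152). Between the matrix and the sums the log2 change of Cpt1a differed by 1.03. A difference at least as large was seen in 67 of 12009 genes (0.558%), and the median absolute difference was 0.02.

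Among the 10182 retained-intron transcripts tested, the median log2 change was 0.17, with the middle part of the distribution (25th to 75th percentile) from −0.12 to 0.48. Of them 8.99% were at or below the −0.49 of Cpt1a-202. Among 22168 protein-coding transcripts the median was −0.02, and 1.53% were at or above the 1.88 of Cpt1a-201.

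Cpt1b encodes the CPT1 form of muscle and heart. It was at 3.51, 2.25 and 1.90 CPM in control and 3.87, 2.59 and 2.68 CPM in palmitate. The groups overlapped, with replicate 1 the highest in each, and the log2 change was 0.26 ± 0.29 (95% interval −0.40 to 0.92, adjusted p 0.545 by edgeR). Between 45 and 102 counts per library lie behind these values. Its main transcript, Cpt1b-201, shares 93.7% of its 31-base words with 1 other gene, Gm44502, so its reads cannot be placed on Cpt1b with certainty.

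Cpt1c encodes the CPT1 form found mainly in neurons, in the endoplasmic reticulum. In the matrix it had 0, 6 and 4 counts in control and 4, 5 and 1 in palmitate, which is too few for a test. The reads outside the matrix were mostly those of the retained-intron transcript Cpt1c-203. That transcript was at 1.76, 1.67 and 1.79 CPM in control and 2.41, 2.33 and 2.33 CPM in palmitate. The groups did not overlap, yet the log2 difference of 0.44 ± 0.21 did not pass (adjusted p 0.366 by edgeR). Behind it stand 42.8 to 67.8 estimated reads per library.

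Slc25a20 encodes the carnitine-acylcarnitine carrier of the inner membrane. It was at 42.1, 40.1 and 37.8 CPM in control and 62.0, 57.6 and 55.6 CPM in palmitate. The groups did not overlap, and Slc25a20 rose by 0.55 ± 0.08 on the log2 scale (95% interval 0.36 to 0.73, 1.46-fold, adjusted p 0.00559 by edgeR). The coding transcript Slc25a20-201 was at 27.0, 30.2 and 26.9 CPM in control and 44.5, 42.2 and 43.0 CPM in palmitate. Its log2 difference was 0.62 ± 0.09, with an adjusted p of 0.0613. The retained-intron transcript Slc25a20-202, which reads from exon 1 into intron 1, was at 10.1, 8.05 and 8.33 CPM in control and 9.85, 8.97 and 7.42 CPM in palmitate. Its groups overlapped, and its log2 difference was −0.02 ± 0.17 (95% interval −0.44 to 0.41).

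For the coding transcript of Slc25a20 the groups were thus apart, and for the retained-intron transcript they overlapped. The coding share was 72.5%, 78.5% and 76.0% in control and 81.3%, 82.2% and 84.8% in palmitate, without overlap. The test of this share gave no call: the log2 value for Slc25a20-201 was 0.13 with an adjusted p of 1 by edgeR, and the adjusted p with diffSplice was 0.199. Of the 31-base words of Slc25a20-202, 13.6% occur in transcripts of other genes.

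Cpt2 encodes the inner-membrane transferase that hands the acyl group back to CoA. It was at 12.3, 10.9 and 10.2 CPM in control and 9.16, 8.53 and 8.71 CPM in palmitate. All palmitate libraries were below all control libraries, but the log2 difference of −0.34 ± 0.13 did not pass (95% interval −0.63 to −0.05, adjusted p 0.0856 by edgeR). With transcript sums and length offsets it was −0.59 with an adjusted p of 0.0237, where 19.6% of genes were called. The coding transcript Cpt2-201 had a log2 difference of −0.31 ± 0.14 (adjusted p 0.339). The short transcript Cpt2-206, with 9.05 to 41.2 estimated reads per library, had one of −1.11 ± 0.38 (adjusted p 0.243), and 97.4% of its 31-base words occur in other Cpt2 transcripts.

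Crat encodes carnitine acetyltransferase, which acts on short-chain acyl groups and exports surplus acetyl units as acetylcarnitine. It was at 4.57, 4.37 and 4.65 CPM in control and 2.78, 2.63 and 3.04 CPM in palmitate. The groups did not overlap, and Crat fell by 0.69 on the log2 scale (SE 0.17, 95% interval −1.07 to −0.30, adjusted p 0.0241 by edgeR). Each library held 51 to 133 counts, and the call held in 1 of the 6 fits that leave out a library, the one without control library 1 (adjusted p 0.0356 to 0.0965). In those 6 fits the log2 change ran from −0.74 to −0.65. Its reads were divided mainly among 3 coding transcripts in a way that changed from library to library. Crat-201 had 90.7, 75.6 and 82.5 estimated reads in control but 0, 46.3 and 51.0 in palmitate, and Crat-202 had 32.8 reads in palmitate library 1 and 0 in palmitate libraries 2 and 3. Between 97.1% and 99.2% of the 31-base words of each are shared with other Crat transcripts, so the division among them is uncertain, and the values of single Crat transcripts are given only with this limit.

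Crot encodes carnitine octanoyltransferase, the peroxisomal enzyme that prepares chain-shortened acyl groups for export. It was at 38.9, 50.7 and 49.7 CPM in control and 49.7, 65.7 and 65.0 CPM in palmitate. The groups overlapped, with replicate 1 the lowest in each group. The log2 difference was 0.37 ± 0.14 (95% interval 0.05 to 0.70, adjusted p 0.0921 by edgeR). With the replicate number as a block, which compares libraries of the same number, it was 0.37 with an adjusted p of 0.00624, and 33.1% of all genes were then called. Without palmitate library 1 it was 0.49 with an adjusted p of 0.0493.

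The 2 main transcripts of Crot were higher with palmitate by amounts that did not pass. For the coding transcript Crot-201 the log2 difference was 0.31 ± 0.22, and for the retained-intron transcript Crot-203 it was 0.34 ± 0.19. The share of Crot-203 in Crot reads was 22.8%, 11.8% and 12.0% in control and 16.8%, 14.7% and 13.9% in palmitate, with overlap. The log2 value of its usage test was 0.02 (adjusted p 1 by edgeR).

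**Figure D3:**
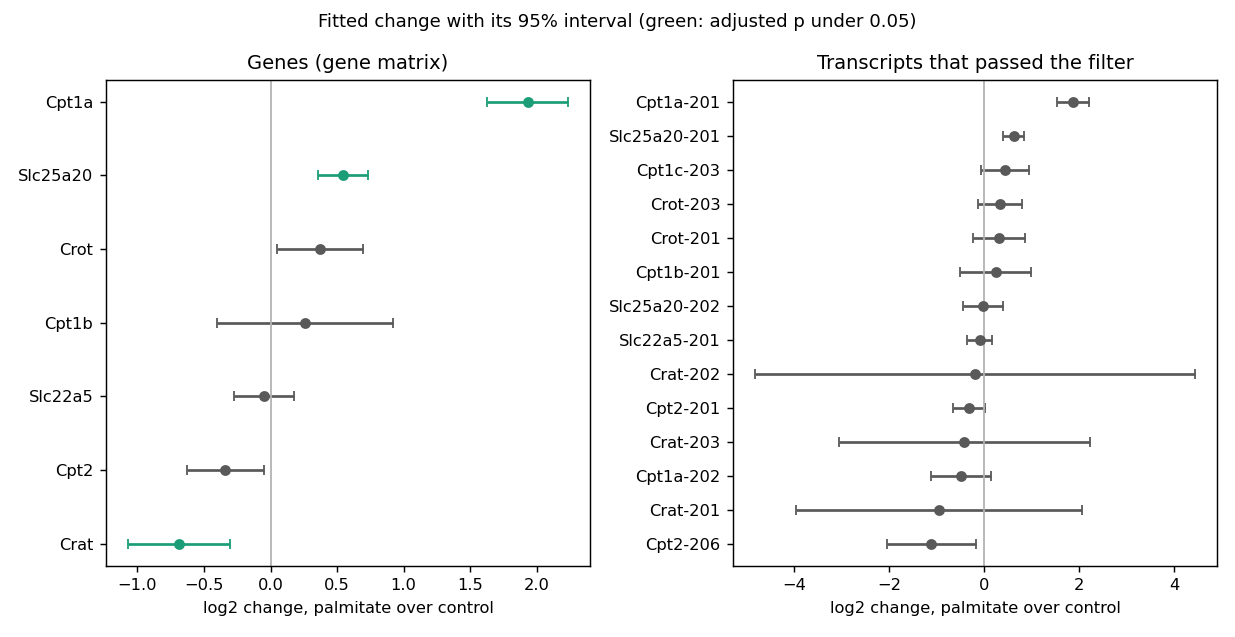
Fitted log2 change, palmitate over control, with its 95% interval for the 7 genes tested (left) and the 14 transcripts that passed the filter (right); green marks an adjusted p under 0.05. The 3 genes Cpt1a, Slc25a20 and Crat are marked, and no transcript is; the intervals of the 3 Crat transcripts are the widest.

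Over all transcripts, edgeR called 0 of 39731, with 6297 at an unadjusted p under 0.05, while DESeq2 called 2924 of 25598 (11.4%) and limma-voom 12 (0.0302%). Of the 14 member transcripts 0 were called by edgeR and 3 had an unadjusted p under 0.05, where the share over all transcripts was 15.8%. DESeq2 called 2 of them, Cpt1a-201 and Slc25a20-201, and limma-voom 1, Cpt1a-201 (adjusted p 0.0411). The same pair was called by edgeR with upper-quartile scaling (0.529% of transcripts called) and with a minimum mean of 5 CPM (7.16% called). The CPM of the 2 groups did not overlap for 5 of the 14, against 24.3% of all transcripts.

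Compared per length, the order of the genes changed with the transcripts counted. With all transcripts, the control order from the highest mean summed TPM was Slc25a20 (24.9 ± 1.48, SD, n = 3), Cpt1a (23.9 ± 2.85), Crot (19.6 ± 2.08), Cpt2 (9.18 ± 1.21), Slc22a5 (7.07 ± 0.48), Crat (1.65 ± 0.35), Cpt1c (1.102 ± 0.18) and Cpt1b (1.06 ± 0.26). Slc25a20 and Cpt1a, Cpt1a and Crot, and Cpt1c and Cpt1b overlapped between libraries, and the other neighbours did not. With protein-coding transcripts only, Cpt1a was 4 in that order in control, at 5.42 ± 0.35 TPM, below Slc25a20 (20.4 ± 1.12), Crot (15.8 ± 2.95) and Slc22a5 (6.94 ± 0.44), and it overlapped with Cpt2 (5.27 ± 0.54).

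With palmitate, coding Cpt1a was at 26.1, 18.1 and 18.5 TPM and was 3 in the order, behind Slc25a20 (33.3 ± 2.55) and overlapping with Crot (21.03 ± 3.12). Cpt1a was thus the CPT1 gene with the highest coding level in both groups. The coding level of Cpt1b was 1.17 ± 0.36 TPM and that of Cpt1c 0.52 ± 0.45 TPM in palmitate. Crat, at 0.99 ± 0.14 TPM, overlapped with both.

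**Figure D4:**
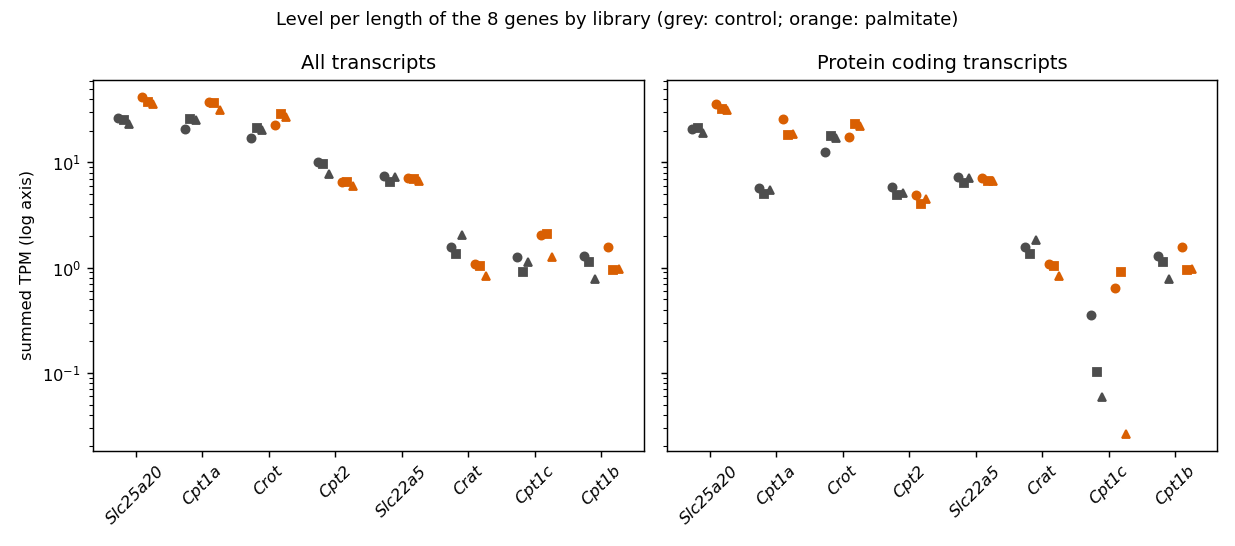
Summed deposited TPM of each gene on a log axis, from all its transcripts (left) and from its protein-coding transcripts (right); points are libraries. Coding Cpt1a lies at 5.05 to 5.75 TPM in control and 18.1 to 26.1 TPM in palmitate, while with all transcripts the control libraries reach 25.7 TPM.

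Genes around the shuttle were read from 8 lists of 78 genes, of which 64 were tested in the gene matrix, 14 rose and 2 fell, where 11.1% of all genes rose and 11.7% fell. Among the genes of carnitine supply 1 of 4 tested rose. This was Slc25a45, a mitochondrial carrier linked to methylated amino acids, which was at 5.61, 2.77 and 3.35 CPM in control and 10.8, 8.10 and 9.66 CPM in palmitate (log2 change 1.28 ± 0.27, adjusted p 0.0146 by edgeR). None of 6 acyl-CoA synthetases, which activate fatty acids before CPT1, passed with edgeR, and 2 had an unadjusted p under 0.05, both lower: Acsl3 (−0.46 ± 0.15, adjusted p 0.0582) and Acsl1 (−0.22 ± 0.09). Acsl3 did pass with the replicate block, which called 33.1% of all genes (−0.44, adjusted p 0.0071 by edgeR), and with transcript sums, which called 25.8% (−0.48, adjusted p 0.0439). Of 8 genes that make, remove or regulate malonyl-CoA, the inhibitor of CPT1, Mlycd rose (0.63 ± 0.16, adjusted p 0.0263 by edgeR). Mlycd encodes malonyl-CoA decarboxylase, which removes the inhibitor. Acaca, which makes it, and Prkab2, of the same list, did not pass. The log2 difference was −0.13 ± 0.07 for Acaca (adjusted p 0.246 by edgeR) and 0.34 ± 0.14 for Prkab2 (adjusted p 0.115 by edgeR).

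Downstream of the shuttle, 4 of 14 genes of mitochondrial beta-oxidation rose and 1 fell, with a list median of 0.11. Acadvl, the very-long-chain acyl-CoA dehydrogenase, was at 62.2, 60.1 and 58.4 CPM in control and 131, 121 and 127 CPM in palmitate. It rose by 1.07 ± 0.07, in all 3 palmitate libraries above all control libraries. Etfdh (0.39 ± 0.08) and Hadh (0.36 ± 0.08) rose less. The list's other called genes, named after their values were seen, encode the 2 subunits of the electron transfer flavoprotein. Etfb rose by 0.37 ± 0.09 (adjusted p 0.0234 by edgeR) while Etfa fell by 0.30 (SE 0.09, adjusted p 0.037). When single libraries were left out, the Etfa call did not hold in any fit except possibly that without control library 1.

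Of 13 peroxisomal genes 3 rose. Acaa1a, a thiolase, had a log2 change of 0.71 ± 0.13 and Acox3, an acyl-CoA oxidase, of 0.51 ± 0.12. For Decr2 the matrix held 9.40% of the gene's reads. Its matrix log2 change was 3.17 ± 0.84, while that of its transcript sum was −0.08 (adjusted p 0.572).

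Cpt1a is a known target of the peroxisome proliferator-activated receptors (PPARs), which bind fatty acids and act with retinoid X receptors. Ppara and Pparg had too few counts to be tested, and the remaining receptor, Ppard, was tested and not called. Of 7 tested receptor and partner genes 2 rose. Rxra was at 7.36, 4.85 and 5.32 CPM in control and 19.6, 17.0 and 18.0 CPM in palmitate (1.64 ± 0.17, adjusted p 0.00263 by edgeR), and Ncoa1 rose by 0.41 ± 0.13 (adjusted p 0.048). Rxrb, at an adjusted p of 0.0864, passed with the replicate block (0.29, adjusted p 0.0381 by edgeR). Of 9 other PPAR target genes 3 rose, with a list median of 0.45 against 0.02 over all genes. Plin2, a lipid droplet coat protein, rose by 1.36 ± 0.12, Angptl4 by 0.71 ± 0.15 and Pdk4, which restrains pyruvate oxidation, by 2.53 ± 0.40. Pdk4 was low in control (0.14, 0.28 and 0.14 CPM) and at 1.29, 0.94 and 1.01 CPM in palmitate. Vdac1, a porin through which metabolites cross the outer membrane, fell by 0.39 (SE 0.10, adjusted p 0.0265 by edgeR). The other porins did not pass: Vdac3 differed by −0.28 ± 0.09 (adjusted p 0.0568 by edgeR) and Vdac2 by −0.21 ± 0.07 (adjusted p 0.0645). Both passed with the replicate block (adjusted p 0.0165 and 0.041 by edgeR), and Vdac3 also with transcript sums (adjusted p 0.0419). The CPM of the groups did not overlap for either gene.

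The number of calls moved with the libraries used, on the lists and over all genes. Against 16 called list genes with all libraries, 24, 11 and 4 were called without control library 1, 2 and 3, and 7, 9 and 8 without palmitate library 1, 2 and 3. Over all genes 2759 were called with all libraries, 3433, 1353 and 690 without control library 1, 2 and 3, and 1443, 1651 and 1304 without palmitate library 1, 2 and 3. With the replicate block 25 list genes (18 higher, 7 lower) and 3993 of all genes were called. With transcript sums 21 of 66 list genes tested were called (16 higher, 5 lower), where 25.8% of all genes were called. Without control library 1, 17 were higher and 7 lower, and the other fits without a library called 0 lower. Acadvl, Rxra, Plin2 and Pdk4 were called in all 6 fits that leave out a library. Etfdh and Acaa1a were called in 5 of these fits, Slc25a45 in 4, and Acox3 and Angptl4 in 3. Hadh and Decr2 were called in 2, and Mlycd, Ncoa1 and Vdac1 in 1.

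The 5 genes whose profile over the 6 libraries was nearest to that of Cpt1a in the gene matrix were Trib2, Mxd4, Trp53inp1, Rxra and Ddr1. The measure is the root mean square difference of log2 CPM after each gene was centred on its own mean, and it was 0.17 for Trib2 and 0.23 for Ddr1. Trib2 was at 16.7, 12.7 and 17.6 CPM in control and 63.0, 39.8 and 53.5 CPM in palmitate. As with Cpt1a, palmitate library 1 was the highest and palmitate library 2 the lowest of its group. The likeness was computed on the matrix value of Cpt1a, that is on Cpt1a-201, and it is a description over 6 libraries of 2 groups.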

How the data were processed

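RNA-seq of 6 libraries was analysed, 3 per group. Per the submitters' processing notes the tools were Trim Galore 0.6.10, Salmon 1.10.0 and DESeq 1.42.0 with build GRCm39; their options are not stated. Deposited were whole-number counts per gene in a matrix and, per library, Salmon's expected counts (rounded here before tests), TPM values and effective lengths per transcript. Per the labels' protocols RNA was isolated on RNeasy columns and libraries were made with a SMARTER mRNA-Seq kit; strand is not stated. In the matrix 0 columns were unused and 0 entries named no gene. Symbols, transcript classes and sequences came from GENCODE M21, an earlier build, so no coordinates are printed; 114857 of 116224 transcripts matched (98.82%), holding 99.45% to 99.49% of reads.

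Genes, transcripts and transcript shares (diffSpliceDGE, log2 change against the gene's total) were tested with edgeR 4.0.16 (R 4.3.3): TMM scaling, filterByExpr, robust quasi-likelihood fit, two-sided tests, Benjamini-Hochberg adjustment over all features tested, threshold 0.05, group as the only term. Every adjusted p is edgeR's unless another tool is named (DESeq2 1.42.0, limma 3.58.1). The scripts were tested on simulated data. CPM use TMM-scaled library sizes, separately for genes, transcripts and sums. SE and 95% intervals come from the quasi-likelihood test.

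Replicate numbers 1 to 3 stand in the titles of both groups. Deviations from group means correlated at 0.19 to 0.32 for same-numbered libraries and at −0.27 to 0.09 otherwise. The labels do not say that the numbers pair the libraries. If they do, the main tests ignore that pairing, since the number entered as a block only in an alternative fit. The block value is printed where it changes a call on a member or a named list gene. Each library was counted as 1 replicate. Replicates differed by more than sampling noise (chi-square per gene 11.5 to 37.6), which does not show that they are separate animals or cultures.

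The members, lists and markers were chosen with earlier results of these data known. Named were the 8 members, their transcripts past the filter, up to 3 genes of each list with the smallest p, and the 5 genes most like Cpt1a (mean log2 CPM of 2 or more). Alternatives were no filter, upper-quartile and RLE scaling, a minimum mean of 5 CPM, DESeq2, limma-voom, transcript sums, length offsets, the block and each library left out.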

Additional observations from a re-analysis of the deposited data

How the results depend on the processing

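Of the 7 genes tested, 3 were called in the main fit, 2 to 3 without single libraries and 4 with the replicate block. With transcript sums and length offsets 4 of 8 were called. Without palmitate library 1 the called members were Cpt1a, Slc25a20 and Crot, and Crat was not called. Cpt1a and Slc25a20 kept their direction and their call under every alternative run. Calls on transcripts did not: edgeR called 0 of 14, and 2 were called with upper-quartile scaling, 1 with no filter on low counts, 2 with a minimum mean of 5 CPM, 2 with DESeq2 and 1 with limma-voom, while without single libraries the count was 0 to 0. The count of called transcript shares was 1, and it was 0 with RLE scaling, a minimum mean of 5 CPM and the replicate block, 2 with limma's diffSplice, and 0 to 1 without single libraries. The exact permutation test gave 0, which says nothing, since with 3 against 3 it cannot go below 0.1. With the replicate block 25 of the 64 list genes were called instead of 16, and without single libraries 4 to 24. Over all genes 33.1% were called with the block and 22.9% in the main fit. The block changed 1 other call among the members, that of Crot. Decr2 went from a log2 change of 3.17 to −0.079 with transcript sums, which hold the reads the matrix lacks, and Slc22a5 to 0.0094 with upper-quartile scaling. Directions of other uncalled values also turned; the cause was not tested. Without single libraries the log2 changes ran from −0.11 to 0.088 for Slc25a20-202 (0.064 with a minimum mean of 5 CPM), −1.49 to 0.12 for Crat-203, −6.65 to 0.39 for Crat-202 and −0.034 to 0.56 for Slc22a21. For the shares they ran from −0.052 to 0.027 for Crot-201 (0.0077 with the replicate block), −0.15 to 0.34 for Crot-203, −0.96 to 0.38 for Crat-201, −5.92 to 1.17 for Crat-202 (−1.45 with the block) and −0.76 to 0.96 for Crat-203 (−0.28 with the block). At 51 to 133 counts per library, depth limits the precision for Crat.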
